A study of Mus musculus with 4 samples.

Results

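Rps27a and Ubb, a pair of genes that encode ubiquitin, were followed in primary mouse microglia treated with epigallocatechin gallate (EGCG), a flavan-3-ol of green tea. They are 2 of the 54532 genes listed in the count tables, and both were among the 13811 protein-coding genes tested. The genes were chosen by name, and Rps27a was selected on the measured values themselves, because it was higher with EGCG than with vehicle in both numbered pairs of libraries. Its EGCG values are therefore given as a description. Other ubiquitin-coding genes of the mouse genome are not analysed here.

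Microglia, the resident immune cells of the brain, were cultured from the cortex of neonatal male mice of the CD1 strain. They received 1 µM EGCG (2 libraries) or the DMSO vehicle (2 libraries) for 24 h in medium without serum. Poly-A RNA was sequenced from each culture. The labels number the libraries of each group 1 and 2 and call them biological replicates, but do not say what same-numbered libraries share. Total counts were 33805071 in Vehicle 1, 34300679 in EGCG 1, 36307930 in Vehicle 2 and 54970300 in EGCG 2. Levels are given as CPM, counts scaled by library size with TMM factors. All 13 microglia markers passed the filter on low counts, and their summed level lay between 8021 and 12361 CPM. Astrocyte markers summed to between 13.7 and 19.4 CPM and oligodendrocyte markers to between 73.4 and 78.6 CPM. Fibroblast and endothelial markers summed to 283 CPM in Vehicle 1, 0.375 in EGCG 1, 112 in Vehicle 2 and 107 in EGCG 2. The endothelial marker Cldn5 was at 0 in every library. Pecam1, also an endothelial marker and named after its values were seen, did not follow it. Pecam1 had 2 counts in Vehicle 1, 3 in EGCG 1, 580 in Vehicle 2 and 741 in EGCG 2. Single libraries also differed in fibroblast genes such as Col1a1, a collagen chain. Col1a1 had 3962 counts in Vehicle 1, 4 in EGCG 1, 1344 in Vehicle 2 and 2040 in EGCG 2. In bulk RNA, fewer cells of a type and less RNA per cell cannot be told apart.

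Ubiquitin is a small protein that cells attach to other proteins. An E1 enzyme activates it, E2 enzymes carry it, E3 ligases place it on targets, and deubiquitinases remove it again. Chains of ubiquitin send proteins to the proteasome, guide autophagy and, in innate immune cells such as microglia, build the signalling complexes that lead to NF-κB. No gene encodes free ubiquitin alone. Ubb encodes a polyubiquitin, a row of head-to-tail units that is cut apart after translation. Rps27a encodes 1 unit fused to a protein of the small ribosomal subunit, so a single transcript supplies both ubiquitin and a part of the ribosome.

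Both genes lie on chromosome 11 of GRCm38. Rps27a (ENSMUSG00000020460) spans 29545846 to 29548109 on the minus strand, and Ubb (ENSMUSG00000019505) spans 62551171 to 62553213 on the plus strand. The coding transcript of Rps27a has 637 bases in 5 exons and 156 codons, of which the first 76 encode ubiquitin and the other 80 the ribosomal protein. That of Ubb has 1499 bases in 2 exons, and its 305 codons hold 4 ubiquitin units followed by 1 further codon. The units are shown because they tell how far reads of these genes can be told apart. All 5 encode the same 76 residues. Rps27a differs from each Ubb unit at 44 of 228 bases (80.7% identical), whereas the units of Ubb differ from one another at 2 to 10 bases (95.6% to 99.1% identical). In the sequences, taken from GENCODE transcripts on GRCm38, capitals in Rps27a mark bases that differ from the first Ubb unit, and capitals in Ubb mark bases that differ from Rps27a.
Rps27a unit (chr11:29546384-29547728, minus strand, joined across exons): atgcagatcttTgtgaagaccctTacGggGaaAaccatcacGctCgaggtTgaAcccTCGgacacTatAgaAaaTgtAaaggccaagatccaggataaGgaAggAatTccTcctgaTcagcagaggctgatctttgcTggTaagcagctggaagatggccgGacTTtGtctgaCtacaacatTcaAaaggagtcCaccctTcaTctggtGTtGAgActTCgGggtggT
Ubb unit 1 (chr11:62552146-62552373, plus strand): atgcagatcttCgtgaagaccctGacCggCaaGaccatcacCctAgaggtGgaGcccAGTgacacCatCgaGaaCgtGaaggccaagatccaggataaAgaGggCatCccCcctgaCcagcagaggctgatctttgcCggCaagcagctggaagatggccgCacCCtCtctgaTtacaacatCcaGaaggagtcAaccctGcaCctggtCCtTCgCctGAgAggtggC
Ubb unit 4 (chr11:62552830-62553057, plus strand): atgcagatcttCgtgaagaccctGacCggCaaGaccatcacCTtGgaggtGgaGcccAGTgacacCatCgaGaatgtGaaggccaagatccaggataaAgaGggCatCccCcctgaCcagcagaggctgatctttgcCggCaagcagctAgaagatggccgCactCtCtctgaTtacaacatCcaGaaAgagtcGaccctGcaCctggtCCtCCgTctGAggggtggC
Of the 44 differing bases, 38 stood at position 3 of a codon.

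Rps27a was higher with EGCG than with vehicle, while Ubb stayed at nearly 1 level in all 4 libraries. Rps27a had 7786 counts in Vehicle 1, 12014 in EGCG 1, 6011 in Vehicle 2 and 17564 in EGCG 2. After scaling for depth these were 237, 375, 164 and 318 CPM. Both EGCG libraries lay above both vehicle libraries, and the groups did not overlap. The mean was 200.6 ± 51.8 CPM with vehicle and 347 ± 40.0 CPM with EGCG (SD, n = 2 each). Groups were ordered in this way for 882 of the 13811 genes tested (6.39%). Libraries numbered 1 and 2 also differed, the second being lower in either group.

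**Figure D1:**
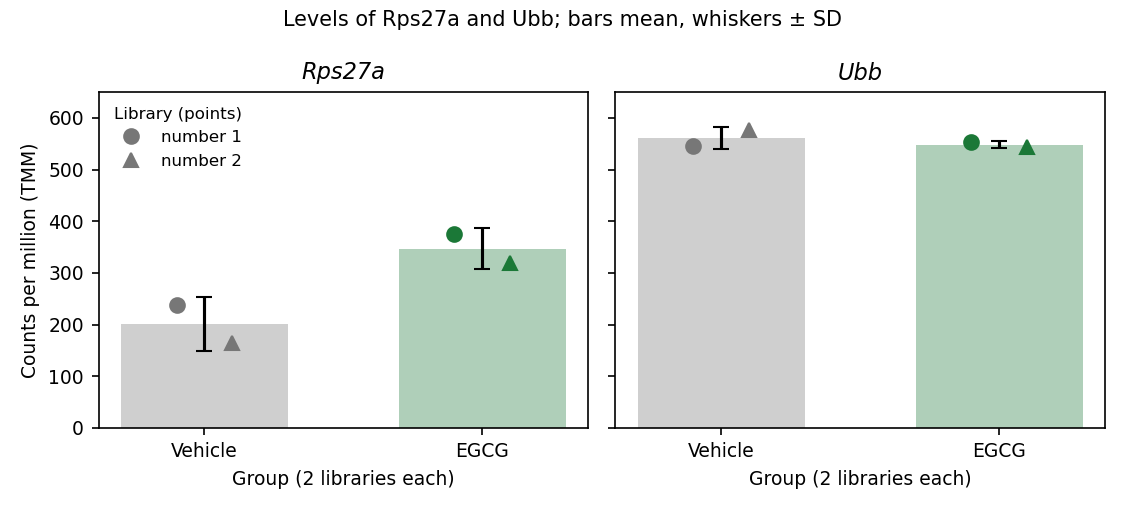
CPM of Rps27a (left) and Ubb (right) by group, with a point for each library (circle for number 1, triangle for number 2), bars for the group mean and whiskers for ± SD (n = 2). The 2 EGCG libraries of Rps27a, at 375 and 318 CPM, sit above the vehicle libraries at 237 and 164 CPM, whereas the Ubb libraries lie between 543 and 576 CPM.

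The values that selected Rps27a were its differences within the numbered pairs. In the libraries numbered 1 it was 0.66 higher with EGCG on the log2 scale, a ratio of 1.58 (95% counting interval 0.62 to 0.70). In those numbered 2 it was 0.96 higher, a ratio of 1.94 (0.91 to 0.999). The intervals cover counting error only, not the spread between cultures. Of the genes tested, 4135 (29.9%) were higher with EGCG in both pairs and 2851 (20.6%) were lower in both. Over all genes tested, the EGCG differences of the first pair had a Pearson correlation of -0.054 with those of the second. The edgeR estimate for Rps27a over all 4 libraries was 0.79 (SE 0.25). Summed fibroblast and endothelial markers were at 283 CPM with vehicle and 0.375 CPM with EGCG in the first pair. In the second they were at 112 and 107 CPM. Their part in the difference of Rps27a was not tested.

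Rps27a stood near the upper end of all genes within each pair. In the first pair 462 of the genes tested had a larger difference, and in the second 423. In both pairs together, 49 other genes did, and 1 of them was among the 8356 genes with a mean of at least 10 CPM. This gene, named after its values were seen, was Rpl17, a gene for a large-subunit ribosomal protein. It had 1812 counts in Vehicle 1, 3768 in EGCG 1, 2106 in Vehicle 2 and 6917 in EGCG 2, with log2 differences of 1.09 and 1.13.

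Ubb was not chosen by its value. It had 17921 counts in Vehicle 1, 17727 in EGCG 1, 21121 in Vehicle 2 and 29983 in EGCG 2, or 546, 553, 576 and 543 CPM. No library stood apart and the groups overlapped. The mean was 561 ± 21.2 CPM with vehicle and 548 ± 6.91 CPM with EGCG (SD, n = 2 each). The log2 fold change was -0.03 (SE 0.15), which did not pass edgeR's quasi-likelihood test (adjusted p = 1.00). Within the pairs Ubb differed by 0.02 (95% counting interval -0.01 to 0.05) and by -0.08 (-0.11 to -0.06), so the sign was not the same in both. In the same test 16 of 13811 genes (0.116%) had an unadjusted p under 0.05, 4 of them higher and 12 lower with EGCG, and 0 (0%) had an adjusted p under 0.1. DESeq2 without the replicate number gave 24 and 1. Rps27a, selected on these values, was among the 16 and among the 24, so its p is no test.

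The reads of the pair of genes were split differently with EGCG. Rps27a took 30.3% of them in Vehicle 1 (95% Wilson interval 29.7% to 30.9%) and 40.4% in EGCG 1 (39.8% to 41.0%). It took 22.2% in Vehicle 2 (21.7% to 22.7%) and 36.9% in EGCG 2 (36.5% to 37.4%). These intervals also cover counting error only, and those of Vehicle 1 and Vehicle 2 did not overlap either. The share was higher with EGCG in either pair, as the choice of Rps27a fixed once Ubb was level, and no test was made of it.

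The order of the levels depended on the length used to scale them. The tables give Rps27a a gene length of 1972 bases, which is longer than its coding transcript, and Ubb a length of 1675 bases. Per kilobase of gene length, Rps27a was at 120, 190, 83.2 and 161 CPM in Vehicle 1, EGCG 1, Vehicle 2 and EGCG 2, and Ubb at 326, 330.3, 344 and 324 CPM. On that scale Ubb was higher in every library, and Rps27a was 0.369, 0.576, 0.242 and 0.498 of it. Per kilobase of coding transcript, a scale added after the data were seen, Rps27a was at 372.5, 589, 257 and 499.8 CPM and Ubb at 364, 369, 384 and 363 CPM. On this scale Rps27a was 1.59 times Ubb in EGCG 1 and 1.38 times in EGCG 2, 0.670 times in Vehicle 2, and close to it in Vehicle 1 (1.02 times). Counting 4 units for each Ubb transcript and 1 for each Rps27a transcript, Rps27a transcripts carried 20.4% of the ubiquitin units of the pair in Vehicle 1, 28.5% in EGCG 1, 14.3% in Vehicle 2 and 25.6% in EGCG 2. Ubb thus carried most of the units of the pair in each library.

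**Figure D2:**
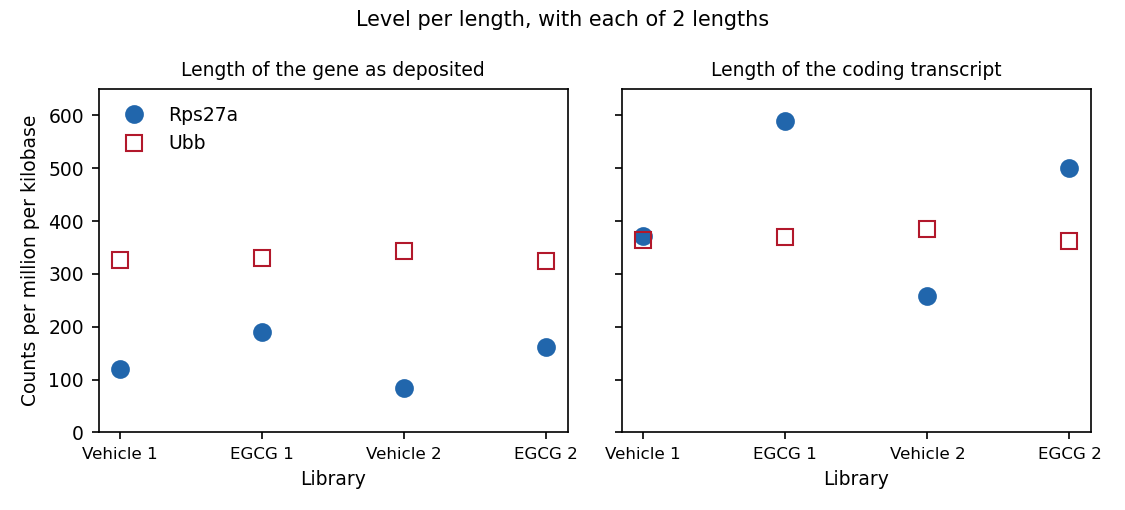
CPM per kilobase of Rps27a (filled circles) and Ubb (open squares) in the 4 libraries, per kilobase of the deposited gene length (left) and of the coding transcript (right). Ubb is above Rps27a in all 4 libraries on the left, and on the right Rps27a is above it in both EGCG libraries and below it in Vehicle 2.

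Both genes were among the more abundant transcripts of these cells. Per kilobase of gene length, Ubb ranked 105, 112, 88 and 97 of 13811 in Vehicle 1, EGCG 1, Vehicle 2 and EGCG 2. Rps27a ranked 328, 219, 496 and 248, so its place moved with its level, while that of Ubb changed little.

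The choice of Rps27a did not use the size of the difference between libraries numbered 2 and 1. Rps27a was lower in the libraries numbered 2, by 0.53 on the log2 scale with vehicle and by 0.24 with EGCG. The fitted difference was -0.38 (SE 0.08; edgeR adjusted p = 0.0152). Without treatment in the model it was -0.34 and no longer passed (edgeR adjusted p = 0.406). With treatment in the model, the spread rests partly on how far the differences within the numbered pairs disagree. Rps27a was chosen because these had the same sign, so the p of 0.0152 is not free of the choice. Ubb differed by 0.08 with vehicle and -0.03 with EGCG, with a fitted difference of 0.03 (SE 0.06; edgeR adjusted p = 0.749). Such differences were common, since 7382 of 13811 genes (53.5%) passed at an adjusted p under 0.1, 3829 higher and 3553 lower in the libraries numbered 2. Summed microglia markers moved with the number too, from 8021 and 8890 CPM in Vehicle 1 and EGCG 1 to 12361 and 11993 CPM in Vehicle 2 and EGCG 2. Their part in the difference of Rps27a was not tested.

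Many mouse ribosomal protein genes have left processed pseudogenes, inserted copies of their spliced transcripts. By sequence, 16 annotated pseudogenes matched Rps27a over at least 200 bases at 90% identity or more, and 2 matched Ubb. Only 2 of the 16 had 10 counts or more summed over the libraries, and 11 had none. Of the windows of 150 bases in the coding transcript of Rps27a, the length of 1 read, 322 of 488 (66.0%) occurred unchanged in a transcript of another gene. These windows began at bases 133 to 454. Gm8430 shared 251 windows (51.4%) and Rps27a-ps2 shared 225 (46.1%). In that of Ubb, 551 of 1350 windows (40.8%) occurred in another gene, all of them in Gm1821. How reads matching several genes were counted is not given in the sources used here, so the split between each gene and its copies is uncertain.

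The copies of Rps27a did not have the pattern of Rps27a. Gm8430 (99.8% identical over 471 bases, on chromosome 6 from 122456904 to 122457374) had 576 counts in Vehicle 1, 377 in EGCG 1, 483 in Vehicle 2 and 418 in EGCG 2, and was lower with EGCG in both pairs, by -0.58 and -0.79 on the log2 scale. Rps27a-ps2 (99.8% over 467 bases, on chromosome 9 from 83409660 to 83410126) had 167, 127, 232 and 342 counts in the same order, with differences of -0.36 and -0.03. Rps27a-ps1, a further annotated pseudogene, had 5, 2, 5 and 1. All copies found by sequence summed to 744, 506, 718 and 767 counts, which was 8.72%, 4.04%, 10.7% and 4.18% of the sum with Rps27a. With all copies added to the gene, the difference was 0.59 in the first pair and 0.86 in the second.

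Ubb and its main copy ran together more closely. Gm1821 (98.5% identical over 685 bases, on chromosome 14 from 46084028 to 46085000) had 2116 counts in Vehicle 1, 2536 in EGCG 1, 2926 in Vehicle 2 and 4252 in EGCG 2. It took 10.6%, 12.5%, 12.2% and 12.4% of the sum with Ubb, lowest in Vehicle 1. Its log2 differences were 0.30 and -0.05. Gm8797, a similar gene annotated as protein-coding, had 81, 91, 81 and 103 counts. Few counts were assigned to genes on the opposite strand, with at most 3 in any library on Clhc1, which overlaps the 5′ end of Rps27a, and at most 8 on Gm12279, which lies beside Ubb.

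**Figure D3:**
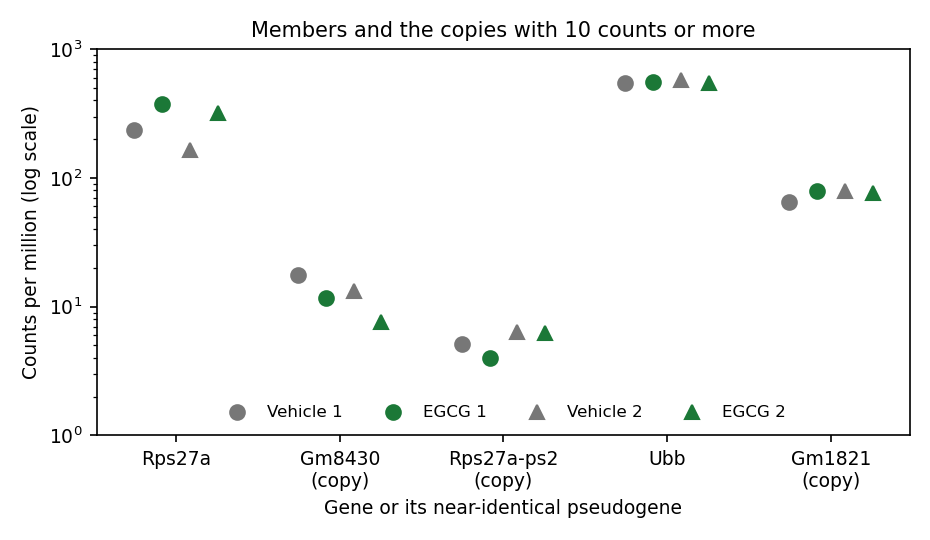
CPM on a log axis of Rps27a, Ubb and their pseudogene copies with 10 counts or more, with a point for each library (grey for vehicle, green for EGCG; circle for number 1, triangle for number 2). Gm8430 lies between 7.58 and 17.6 CPM with its EGCG point below the vehicle point of the same number, the reverse of Rps27a, and Gm1821 lies between 64.5 and 79.8 CPM.

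The ribosomal part of Rps27a invited comparison with the other genes of the small subunit. None of the 32 listed genes had an unadjusted p under 0.05 in edgeR, their log2 fold changes ran from -0.02 to 0.25, and their median was 0.08 beside 0.01 over all genes tested. Of the 32, 14 were higher with EGCG in both pairs (43.8%, beside 29.9% over all genes tested) and 0 were lower in both (beside 20.6%). In the first pair they differed by -0.13 to 0.69 and in the second by -0.20 to 0.25. The single gene above Rps27a in the first pair was Rps27, and none was above it in the second. Rps27, another small-subunit gene, had 2533 counts in Vehicle 1, 3978 in EGCG 1, 10912 in Vehicle 2 and 15991 in EGCG 2. Its pair differences were 0.69 and -0.04, so the first was not seen again in the second pair.

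**Figure D4:**
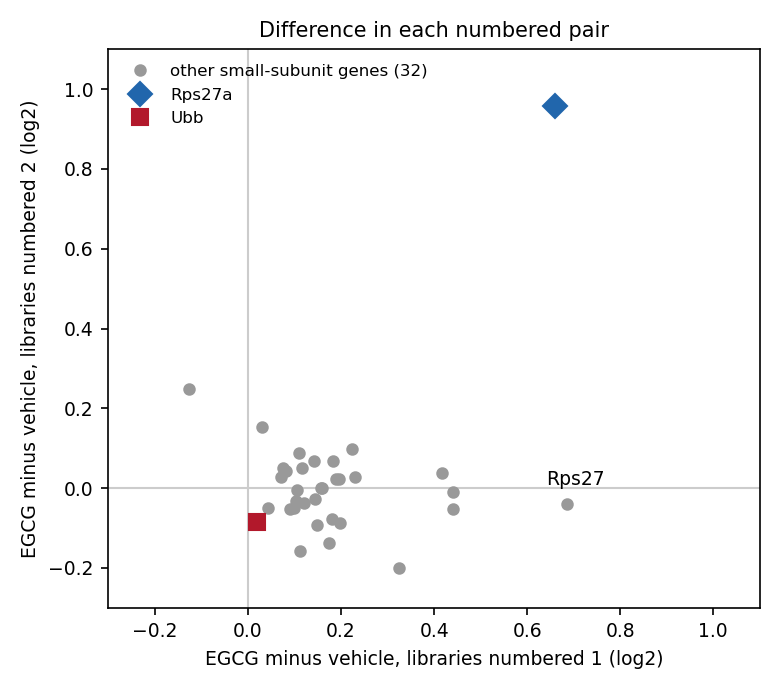
Difference between EGCG and vehicle on the log2 scale in the libraries numbered 1 (horizontal) and 2 (vertical) for the 32 other small-subunit genes (grey), Rps27a (blue) and Ubb (red). Rps27a lies at 0.66 and 0.96, whereas no grey point exceeds 0.25 on the vertical axis.

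The small-subunit genes with the smallest unadjusted p were Rps28 (log2 fold change 0.21, SE 0.21) and Rps27l (0.16, SE 0.17). The most abundant per length were Rps3a1 (687, 727, 700.4 and 722 CPM in Vehicle 1, EGCG 1, Vehicle 2 and EGCG 2; log2 fold change 0.06) and Fau (456, 517, 469 and 445 CPM; 0.06), which, like Rps27a, encodes a ribosomal protein behind a ubiquitin-like domain. Per kilobase of gene length, 21 of the 32 had a higher mean than Rps27a, and the list ran from 1.08 to 725.8 CPM.

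Shared sequence was common in the list too. Of the 32 genes, 26 had at least 1 window of 150 bases in another gene, and 5 had a larger share than Rps27a. These were Fau (70.5%), Rps10 (72.4%), Rps13 (75.0%), Rps6 (82.4%) and Rps27 (98.0%), named after their values were seen. In the first pair Fau differed by 0.18, Rps10 by 0.44, Rps13 by 0.18, Rps6 by 0.07 and Rps27 by 0.69. In the second pair these differences were -0.08, -0.01, -0.14, 0.05 and -0.04. Rps27 was above Rps27a in the first pair, and the other values were below that of Rps27a in the same pair.

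Several small-subunit genes also differed strongly between libraries numbered 2 and 1. Of the 32, 15 passed at an adjusted p under 0.1 (46.9%), 9 higher and 6 lower in the libraries numbered 2, beside the 53.5% over all genes. Rps27 was higher by 1.58 (edgeR adjusted p = 0.00163). Rps18, named after its values were seen, had 7412 counts in Vehicle 1, 8020 in EGCG 1, 446 in Vehicle 2 and 629 in EGCG 2, a difference of -4.34 (edgeR adjusted p = 8.19e-05).

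The genes that act on ubiquitin were read from lists of E1 and E2 enzymes, deubiquitinases, and receptors and shuttles. None of the genes in these lists had an unadjusted p under 0.05 in edgeR. Of the 33 E1 and E2 genes, 18 were higher with EGCG in both pairs (54.5%, beside 29.9% over all genes) and 3 lower (9.09%, beside 20.6%), and the median log2 fold change was 0.05. Uba1, the main E1 enzyme, was at 301, 297, 291 and 301 CPM in Vehicle 1, EGCG 1, Vehicle 2 and EGCG 2, with nearly the same level in all. Ube2d2a, an E2 enzyme that works with many ligases, was at 108, 116, 122 and 130.3 CPM (log2 fold change 0.10). The smallest unadjusted p belonged to Ube2v2 (0.24, SE 0.22), a partner of the E2 Ube2n, and Ube2e2 (0.25, SE 0.24).

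Of the 34 deubiquitinases, 16 were higher in both pairs (47.1%, beside 29.9% over all genes) and 4 lower (11.8%, beside 20.6%), with a median log2 fold change of 0.05. Tnfaip3, the A20 protein that restrains NF-κB signalling, had the smallest unadjusted p of the list. It was at 124 CPM in Vehicle 1, 137 in EGCG 1, 124 in Vehicle 2 and 154 in EGCG 2. For Tnfaip3, both EGCG libraries lay above the vehicle libraries, as they did for 882 of the 13811 genes tested (6.39%). Its log2 fold change was 0.23 (SE 0.13; edgeR adjusted p = 1.00). Brcc3, a subunit of nuclear and cytoplasmic deubiquitinase complexes, followed with 0.18 (SE 0.16). The most abundant per length were Usp8, an endosomal deubiquitinase (-0.02), and Otulin, which cleaves linear chains (-0.01).

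Of the 20 receptor and shuttle genes tested of 21, 6 were higher in both pairs (30.0%, beside 29.9% over all genes) and 1 lower (5.0%, beside 20.6%), with a median log2 fold change of 0.03. Sqstm1, the autophagy receptor p62, was at 700.3, 686, 794 and 739 CPM in Vehicle 1, EGCG 1, Vehicle 2 and EGCG 2, a log2 fold change of -0.07. Vcp, the ATPase that extracts ubiquitin-tagged proteins, was at 278, 316, 270.02 and 269.7 CPM (0.10). Ufd1, a cofactor of Vcp, had the smallest unadjusted p (0.09, SE 0.12), followed by Tsg101 of the endosomal sorting machinery (0.07, SE 0.12).

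Ubiquitin-like modifiers, small proteins that are attached in a similar way, gave 8 genes of 15 tested that were higher in both pairs (53.3%, beside 29.9% over all genes) and 0 lower (beside 20.6%), with a median log2 fold change of 0.05 and no unadjusted p under 0.05. Sumo2, a modifier of nuclear proteins, had the smallest unadjusted p of the list (log2 fold change 1.78, SE 0.82). It had 253 counts in Vehicle 1, 255 in EGCG 1, 199 in Vehicle 2 and 2046 in EGCG 2. The high value was in EGCG 2 alone, and the difference was 0.05 in the first pair and 2.76 in the second. Gabarap, which is joined to lipids on autophagosomes, differed by 0.07 (SE 0.14). Ubd, another modifier of the list, was at 0 in every library.

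Ubb is also known as a heat shock gene, so chaperones induced by heat shock were read beside it. None of 14 had an unadjusted p under 0.05, 6 were higher in both pairs (42.9%, beside 29.9% over all genes) and 2 lower (14.3%, beside 20.6%), and the median log2 fold change was 0.03. Hsp90ab1 was at 1485, 1529, 1302 and 1370.02 CPM in Vehicle 1, EGCG 1, Vehicle 2 and EGCG 2 (0.06), and Hspa8, the constitutive member of the HSP70 family, at 692, 693, 1099 and 1150.1 CPM (0.04). Hspb1, a small heat shock protein, had the smallest unadjusted p (-0.83, SE 0.60) and was scarce, with 25, 9, 23 and 27 counts. Hspe1, a mitochondrial chaperonin, followed with 0.13 (SE 0.24). Between libraries numbered 2 and 1, 10 of the 14 passed (71.4%, beside the 53.5% over all genes), 2 higher and 8 lower in the libraries numbered 2. Hspa8 was 1 of the 2 that were higher, by 0.70.

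**Figure D5:**
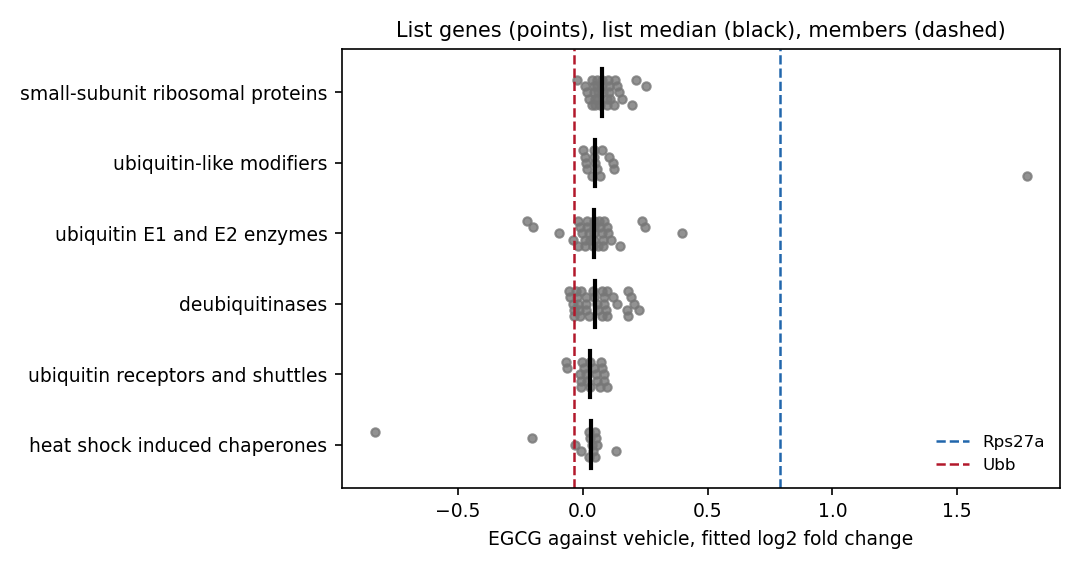
Fitted log2 fold change of EGCG against vehicle for each gene of the 6 lists (points, spread vertically for legibility), the median of each list (black bar), and Rps27a (blue dashed line, 0.79) and Ubb (red dashed line, -0.03). The medians lie between 0.03 and 0.08, and only Sumo2, at 1.78, is to the right of Rps27a.

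The genes whose pattern over the 4 libraries was most like that of Rps27a were Dtnb, Acod1, Mgll, Mmp9 and Rasgrp3. Likeness was the root mean square distance of log2 CPM, each gene centred on its own mean, over 8356 genes with a mean of at least 10 CPM. The distances were 0.248 for Dtnb, 0.256 for Acod1, 0.257 for Mgll, 0.257 for Mmp9 and 0.259 for Rasgrp3, where the median over all genes compared was 0.479. Mmp9, a matrix protease, was at 249 CPM in Vehicle 1, 283 in EGCG 1, 199.7 in Vehicle 2 and 348 in EGCG 2. Acod1, the enzyme that makes itaconate, was at 192, 218, 123 and 168 CPM. Both were picked for likeness to Rps27a, so their being higher with EGCG in either pair is no separate result. The match was loose. Mmp9 differed by 0.19 in the first pair and 0.80 in the second, and Acod1 by 0.18 and 0.44. Rps27a differed by 0.66 and 0.96. For Ubb the closest were Apaf1 (0.00597), Rexo4 (0.00621), Slx1b (0.00688), Cyhr1 (0.00704) and Arid2 (0.00795), beside a median of 0.143. These genes were nearly level, as their choice by likeness to Ubb implies.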

How the data were processed

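The values are raw counts as deposited, 1 whole number of reads for each gene and not normalised, in 1 table per replicate number with a vehicle and an EGCG column, and per the file headers a gene length in bases (a further unit, other than counts). Reads had been aligned with HISAT2 to GRCm38.p6 (submitters' processing notes). The counting program, annotation and treatment of multiply mapping reads are not given in the sources used here. The replicate number of each table came from the study's submission sheet, and the groups from the labels. Nothing ties libraries to separate animals beyond the words biological replicate, so p-values measure the spread between these libraries.

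Tables were joined on Ensembl identifiers (54532 genes, 22046 of them protein-coding). Loci assembled within 1 table (697 and 329) were dropped, with 0.11% to 0.16% of counts. Depth was 33805071 to 54970300 counts, and a floor of 3 counts corresponded to 0.0544 to 0.0936 CPM, for counting error only. The 13811 protein-coding genes with a summed count of 10 or more were fitted in R 4.3.3 with edgeR 4.0.16 (TMM, quasi-likelihood F test, treatment as the only term, Benjamini-Hochberg adjustment). DESeq2 1.42.0, other scalings and filters, the replicate number as a block and leaving out each library were alternatives. Log2 values used a prior count of 2. Near-identical transcripts of GENCODE M21 (GRCm38) were found with BLAST 2.17.0. Coordinates are GRCm38. The fits were tested on simulated counts.

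The members and lists were chosen with earlier results of these data known. Named genes were Rps27a and Ubb, the 3 annotated copies with most reads, up to 2 genes per direction of each list with the smallest unadjusted p (the 2 smallest where none was under 0.05), the 2 highest per length, and the 5 most alike in pattern. Others are marked as named after their values were seen. One gene that this rule names is not reported here.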

Additional observations from a re-analysis of the deposited data

How the results depend on the processing

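Of the alternatives computed, 70 values were kept, 11 moved, 2 reversed and 1 weakened. Numbers of genes, the EGCG estimate of Rps27a and the pair differences were judged by size and, for differences, direction. Only the other estimates were judged by direction and side of the threshold. The number of genes with an unadjusted p under 0.05, 16 in edgeR, was 3 with at least 10 counts required in every library (Rpl17, Dnah2 and Rps27a, the last selected on these values, so that its p is no test), 35 with genes of all biotypes, and 8 to 131 when leaving out 1 library (131 without EGCG 2, 57 without Vehicle 2 and 8 without EGCG 1). The number with an adjusted p under 0.1 was 0 in edgeR, also when any 1 library was left out, and 1 in DESeq2, Rpl17. The estimate for Rps27a ran from 0.53 without Vehicle 2 to 1.08 without Vehicle 1, and that for Ubb from -0.07 to -0.01. With 1 library left, a group was assumed to vary like the other.

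The labels do not say what same-numbered libraries share. With only 2 pairs, the correlation over genes of the number differences in vehicle with those in EGCG was 0.641. That of the EGCG differences in the first pair with those in the second was -0.054. The libraries share only a number as far as the sources go. With the replicate block, edgeR gave 444 genes at an unadjusted p under 0.05 and 1, Rpl17, at an adjusted p under 0.1. DESeq2 with the block gave 153 and 7. Rps27a, selected on these values, was among the 7, so its passing is no test. With the block the estimate was 0.81 in edgeR and 0.80 in DESeq2 for Rps27a, and -0.03 and -0.04 for Ubb.

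Ubb lay near 0, and its sign turned in 2 settings. Its difference in the first pair was -0.038 with total counts only, and its difference between libraries numbered 2 and 1 was -0.00195 with at least 10 counts in every library. That of Rps27a was -0.34 (SE 0.31) without the treatment term, beside -0.38 (SE 0.08) with it. Without that term, the model counts the difference between EGCG and vehicle as spread. Summing each gene with all its pseudogene copies and scaling by coding transcript were alternatives chosen after seeing the data. The counting intervals of Ubb span 0 in the first pair and between the EGCG libraries, so differences of that size were not detectable at this depth.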
